A study of Mus musculus with 18 samples.

Results

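The colorectum of GF-AOMS mice was compared with that of Control mice over all 10897 genes of the deposited count table, in 6 libraries of each group. These are 12 of the series' 18 libraries. The other 6, from the GF-AOM group, entered the statistical model and are printed beside the 2 groups where they help place a value. AOM is azoxymethane, an alkylating carcinogen that induces tumours of the distal colon in rodents, GF means germ-free and S means cigarette smoke. Male C57BL/6J mice aged 10 weeks were used, and total RNA of the colon was sequenced after removal of ribosomal RNA.

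What sets GF-AOMS apart from Control depends on which label is read. In the sample characteristics, Control mice were wild-type and specific pathogen-free with cancer induced by AOM, and GF-AOMS mice were germ-free and received AOM plus smoke. Read that way, both groups carry AOM, and the comparison joins the loss of the microbiota with smoke. In the treatment protocol, the Control group was normal, the GF-AOM group was an AOM model and GF-AOMS mice had AOM plus smoke. Read that way, Control had no AOM, and the comparison joins AOM with smoke. The growth protocol places the mice in a specific pathogen-free facility and does not mention germ-free isolators. The effects of AOM, smoke and germ-free housing cannot be told apart in this comparison, so the groups are called by name. Whether each library is a different mouse is not spelled out in the labels, so p-values reflect only the spread among these libraries, part of which may be technical.

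The colon lining is made of crypts, whose stem cells give rise to absorptive colonocytes, mucus-secreting goblet cells and hormone-secreting enteroendocrine cells. Colonocytes carry a brush border, take up salt and water, and hold enzymes that oxidise, hydrolyse and conjugate foreign compounds. Many of these genes differ in level along the length of the colon, as do the homeobox genes Hoxa13 and Hoxb13, which mark its distal end. Osteopontin and other secreted proteins, and the antiviral genes that respond to interferon, are commonly followed in inflamed and tumour-bearing colon.

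Library totals were 48.95 to 79.23 M counts, where M is the prefix mega. They averaged 57.8 M in Control (SD 11.8, n = 6) and 53.5 M in GF-AOMS (SD 2.42, n = 6; exact permutation test, two-sided, p = 0.474). Epithelial identity was present throughout, with all 10 listed epithelial markers measured and a summed level of 8579 to 12937 CPM (counts per M counts) in Control and 6902 to 9680 CPM in GF-AOMS. The Control libraries were not alike in Hoxa13 and Hoxb13. In Control replicates 1 and 2, Hoxa13 had 42.0 and 38.7 CPM, while replicates 3 to 6 had 0 to 3.05 CPM and GF-AOMS had 24.7 to 50.1 CPM. For Hoxb13 the same pair had 122 and 330.2 CPM, the other 4 had 2.43 to 2.65 CPM and GF-AOMS had 19.8 to 292 CPM. The pair is called the high-Hox Control libraries below, and the other 4 the low-Hox Control libraries. Both sets were defined from the data, with a minimum of 10 CPM for both genes, and are not groups of the study. In GF-AOMS replicate 2, ribosomal protein genes held 26.7% of counts, against 7.40% to 16.3% in the other 5 GF-AOMS libraries and 5.34% to 15.7% in Control. The group means of this share were 14.0% (SD 6.81, n = 6) and 8.68% (SD 3.90, n = 6), which did not separate (exact permutation p = 0.0974, adjusted over 3 library measures 0.146).

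In the edgeR quasi-likelihood test, 80 of 10897 genes passed a Benjamini-Hochberg adjusted p of 0.05, or 0.734% of those tested. Of these, 12 were higher in GF-AOMS (0.11%) and 68 were lower (0.624%). The median difference of the higher genes was 0.98 on the log2 scale and that of the lower genes was -1.31, beside 0.01 over all genes. With upper quartile scaling in place of TMM, 12 genes were higher and 35 lower. Control and GF-AOMS values were fully separate for 87 genes (0.798%) and for 32 of the 80 called genes, 11 higher and 21 lower. Unadjusted p under 0.05 was reached by 755 higher genes (6.93%) and 1008 lower genes (9.25%).

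These calls stood close to the threshold, with adjusted p between 0.0304 and 0.0499. The count was 0 without Control replicate 3, 4 or 6 and 0 without GF-AOMS replicate 2, 4, 5 or 6, where 1189 to 1790 genes still had an unadjusted p under 0.05. It was 2 without GF-AOMS replicate 1, 16 without Control replicate 5 and 493 without Control replicate 2, a high-Hox library. In each of these refits all 80 genes kept their sign. The 80 were chosen on the same libraries and each refit left out only 1, so this is a description and not a separate test. DESeq2 called 375 genes, including all 80, and limma on log2(FPKM + 1) called 19.

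**Figure D1:**
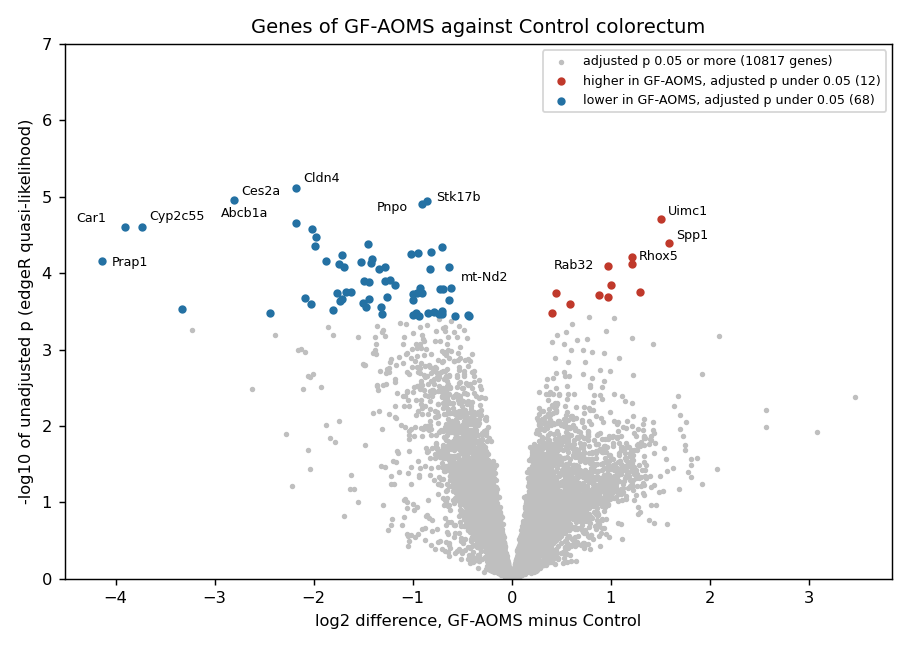
Each point is 1 gene. The horizontal axis is the log2 difference of GF-AOMS minus Control and the vertical axis is -log10 of the unadjusted p from edgeR. The 12 higher and 68 lower genes that passed are coloured, and the lower ones reach further from 0.

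Against the high-Hox Control libraries alone, the higher genes largely held their size and many lower genes did not. The median difference of the 12 higher genes was 0.85 there, against 0.98 for all Control libraries. That of the 68 lower genes was -0.44, against -1.31 for all and -1.54 for the low-Hox Control libraries. Of the 12 higher genes, 11 kept at least 1/2 of their difference, and of the 68 lower genes 24 did, beside 44.7% of all genes. The sign was the same for 77 of the 80, beside 67.9% of all genes. Both high-Hox Control libraries lay outside the range of the 6 GF-AOMS libraries for 11 of the higher and 25 of the lower genes, where 5.13% of all genes did so. No gene passed the adjusted threshold in this fit by edgeR, in which 2 libraries stand for Control. Unadjusted p under 0.05 was reached by all 12 higher and 28 lower genes, beside 3.21% of all genes. The 12 and 68 genes were chosen on Control values that include this pair, so the larger shares among them are a description and not a separate test.

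**Figure D2:**
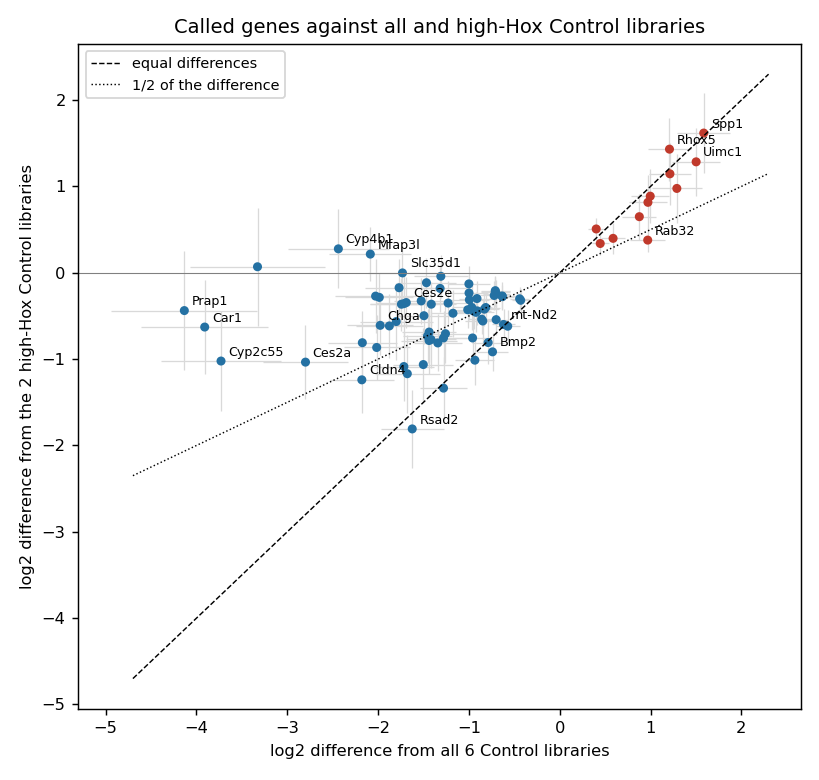
Each point is 1 of the 80 called genes, with standard errors. The horizontal axis is its log2 difference from all 6 Control libraries and the vertical axis that from the 2 high-Hox Control libraries. Spp1, Rhox5, Uimc1 and Rsad2 lie near the line of equal differences, while Car1, Prap1, Cyp4b1, Mfap3l and Slc35d1 lie near 0 on the vertical axis.

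Spp1 had the largest rise among the called genes. It encodes osteopontin, a secreted phosphoprotein that binds integrins and CD44 and is made by macrophages, epithelium and many tumours. Its level was 5.55 to 13.5 CPM in Control, with a median of 9.31, and 16.2 to 46.4 CPM in GF-AOMS, with a median of 26.6. No GF-AOMS library fell into the Control range. The log2 difference was 1.59 (SE 0.29, n = 6 and 6, edgeR adjusted p = 0.0304), and 1.62 (SE 0.46) against the high-Hox pair, whose values were 12.9 and 5.55 CPM. GF-AOM libraries lay between 6.62 and 14.9 CPM, where only 1 exceeded the highest Control library and none reached GF-AOMS. Against GF-AOM the difference was 1.57 (SE 0.31), with an unadjusted p of 4.4e-05 and an edgeR adjusted p of 0.24. Of the 9 measured genes for osteopontin and its receptors, Spp1 alone passed. The receptor genes Cd44 (-0.68, and -0.23 against the high-Hox pair) and Itgav (-0.32) did not pass. The lowest value of these 9 genes against the pair was -0.37.

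Rhox5, an X-linked homeobox gene best known from the testis, ovary and placenta, was low in all libraries. It had 1.45 to 2.22 CPM in Control and 2.99 to 7.85 CPM in GF-AOMS, with medians of 2.09 and 4.05, and the groups did not overlap. The difference was 1.21 (SE 0.24, edgeR adjusted p = 0.0304) and 1.43 against the high-Hox Control libraries. GF-AOM libraries held 1.01 to 2.39 CPM.

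Uimc1 encodes RAP80, the ubiquitin-binding subunit that brings the BRCA1-A complex to DNA breaks. Control libraries had 65.8 to 120.4 CPM and GF-AOMS libraries 124 to 470.2 CPM, with medians of 76.3 and 201.7. Control replicate 2 and GF-AOMS replicate 1 were almost level, at 120.4 and 124 CPM, and GF-AOMS replicate 2 was far above the rest. The difference was 1.50 (SE 0.26, edgeR adjusted p = 0.0304) and 1.28 against the high-Hox pair. In GF-AOM the level was 81.4 to 144.4 CPM. None of the other 6 measured genes of the complex and its partners passed, with differences between -0.34 (Rnf8) and 0.07 (Babam1).

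GF-AOMS replicate 2, the library with the highest ribosomal protein share, was also the highest for Spp1, Rhox5 and Uimc1. Without it the differences were 1.39 for Spp1, 1.00 for Rhox5 and 1.20 for Uimc1, each with an edgeR adjusted p of 0.067. All 3 genes passed when the 5 libraries with TMM factors under 0.9, that one included, were left out, with differences of 1.39, 1.01 and 1.44. Control replicate 2, whose removal alone raised the number of called genes to 493, was also among the 5. That refit therefore cannot show the effect of leaving out GF-AOMS replicate 2.

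The other named higher genes had smaller differences. Rab32 encodes a small GTPase of lysosome-related organelles and mitochondria. It was at 15.6 to 16.5 CPM in the low-Hox Control libraries, at 31.1 and 33.7 CPM in the high-Hox pair and at 37.3 to 47.8 CPM in GF-AOMS. Its difference of 0.97 (SE 0.19, edgeR adjusted p = 0.0304) was therefore 0.38 (SE 0.14) against the pair, although no Control library reached GF-AOMS. Rab32 was the only higher gene that kept less than 1/2 of its difference.

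Mcub, the gene of a subunit that dampens calcium uptake through the mitochondrial uniporter, lay at 6.90 to 12.5 CPM in Control and 15.0 to 26.0 CPM in GF-AOMS. The groups did not overlap, and the difference was 0.88 (SE 0.19, edgeR adjusted p = 0.0409), or 0.65 against the high-Hox pair. The pore gene Mcu did not pass, at -0.56, nor did the other 6 measured genes of mitochondrial calcium transport. The lowest value of these genes against the high-Hox pair was -0.25. Rbm3, a cold-inducible RNA-binding protein gene, was at 248 to 485 CPM in Control and 446 to 846 CPM in GF-AOMS, so that the ranges met at Control replicate 2. Its difference was 0.97 (SE 0.21, edgeR adjusted p = 0.042), of which at least 1/2 was kept against the high-Hox pair. Its pseudogene Rbm3-ps was also called (1.21), and how reads were shared between the pair is not given in the sources used here.

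Inf2, Mcf2l and Ccdc22 had non-overlapping groups and small differences. Inf2, a formin gene that acts on actin, had medians of 19.8 CPM in Control and 27.6 CPM in GF-AOMS and a difference of 0.59. Mcf2l, a guanine nucleotide exchange factor gene, had medians of 66.3 and 94.7 CPM and a difference of 0.45. Ccdc22, the gene of a subunit of an endosomal sorting complex, had medians of 13.5 and 18.1 CPM and a difference of 0.40. Against the high-Hox pair these were 0.40, 0.34 and 0.51. The other 2 higher genes are pseudogenes.

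**Figure D3:**
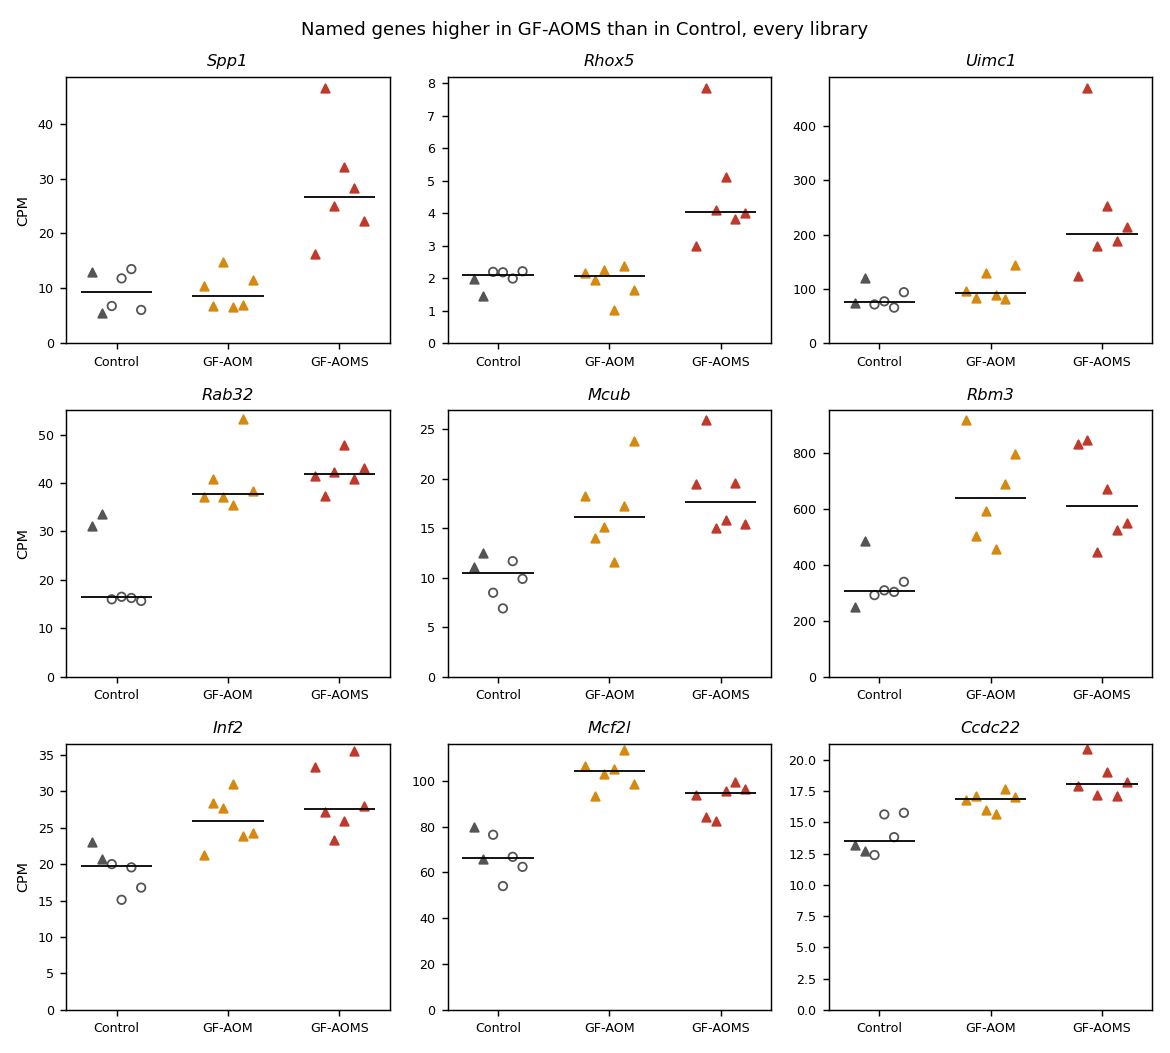
Each point is 1 library, in CPM, for 9 genes called higher in GF-AOMS. Triangles are libraries with at least 10 CPM of both Hoxa13 and Hoxb13, open circles the others, and bars medians. For Spp1, Rhox5 and Uimc1 the GF-AOM libraries sit near Control, and for Rab32 and Mcf2l they sit near GF-AOMS.

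Prap1, Car1 and Cyp2c55 had the largest falls among the named genes, and each was smaller against the high-Hox pair. Car1 encodes a carbonic anhydrase of colonocytes. It was at 5335 to 19166 CPM in the low-Hox Control libraries, at 689 and 728 CPM in the high-Hox pair and at 193 to 746 CPM in GF-AOMS, with a GF-AOMS median of 451. The pair lay inside the upper end of the GF-AOMS range. The difference was -3.91 (SE 0.70, edgeR adjusted p = 0.0304) with all Control libraries and -0.63 (SE 0.54) with the pair.

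Prap1, a gene of a secreted proline-rich epithelial protein, showed the same split. It held 27.8 to 49.9 CPM in the low-Hox Control libraries, 2.73 and 1.40 CPM in the pair and 0.503 to 3.86 CPM in GF-AOMS. Its difference went from -4.13 to -0.44.

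Of the 20 listed genes of absorptive colonocytes and their brush border, all were measured, 16 were lower and 3 were called, with a median of -0.61. Against the high-Hox pair 16 were again lower, with a median of -0.38. The called members besides Car1 were Cdhr5 and Cdhr2, protocadherins that link neighbouring microvilli. Cdhr5 was at 279 to 777 CPM in Control and 146 to 322 CPM in GF-AOMS, with medians of 499 and 197. Only Control replicate 2 lay inside the GF-AOMS range. The differences were -1.34 (SE 0.27) for Cdhr5 and -1.26 (SE 0.27) for Cdhr2, and -0.81 and -0.71 against the pair, so both kept more than 1/2. The chloride exchanger gene Slc26a3 (0.32) and the carbonic anhydrase gene Car4 (0.08) did not pass. The summed level of the list was 6315 to 30989 CPM in Control and 4276 to 7426 CPM in GF-AOMS. In bulk tissue, fewer cells of a type and less RNA per cell cannot be told apart.

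Genes that handle foreign compounds mostly had lower values. Of 28 measured genes of xenobiotic enzymes and pumps, 26 were lower and 3 passed, with a median of -0.81. That median was -0.13 against the high-Hox pair, with 19 lower. Cyp2c55, a cytochrome P450 gene, was at 929 to 3224 CPM in the low-Hox Control libraries, 301 and 147 CPM in the pair and 27.8 to 199 CPM in GF-AOMS. The difference was -3.73 (SE 0.67, edgeR adjusted p = 0.0304) and -1.02 (SE 0.58) against the pair.

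Abcb1a encodes P-glycoprotein, a pump that moves drugs out of the cell. It stood at 265 to 446 CPM in the low-Hox Control libraries, 117 and 85.7 CPM in the pair and 29.4 to 87.2 CPM in GF-AOMS. Control replicate 1 was above the GF-AOMS range and replicate 2 at its upper end, and the difference was -2.17 with all Control libraries and -0.81 with the pair. Ugdh makes UDP-glucuronic acid, the sugar donor of glucuronidation. Its level was 437 to 731 CPM in the low-Hox Control libraries, 154 and 91.5 CPM in the pair and 71.2 to 133 CPM in GF-AOMS, for differences of -1.99 and -0.28. Slc35d1, whose product carries that sugar into the endoplasmic reticulum, had 72.3 to 125.9 CPM in the low-Hox Control libraries and 16.1 to 32.6 CPM in GF-AOMS. The pair, at 30.9 and 17.0 CPM, spanned most of the GF-AOMS range, and the difference of -1.73 (SE 0.38) shrank to 0.00 (SE 0.30).

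Carboxylesterases hydrolyse esters and amides of drugs and lipids. Of 8 measured genes 7 were lower, with a median of -1.85, and the called genes Ces2a, Ces2c and Ces2e lie in 1 cluster on chromosome 8 (104734003 to 104934672). As paralogs they may share reads. Ces2a was at 17.4 to 185 CPM in Control and 9.16 to 15.1 CPM in GF-AOMS, with medians of 70.8 and 10.2 and no overlap. Its difference was -2.80 (SE 0.47, edgeR adjusted p = 0.0304) and -1.03 (SE 0.43) against the high-Hox pair. Ces2c went from -2.02 to -0.87 and Ces2e from -1.69 to -0.35. Ces1g, Ces1f, Ces1d and Ces1e did not pass against all Control libraries and had values of 0.28 to 0.65 against the pair, where the list's median was 0.03.

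Several other called genes were level with the high-Hox pair. Cyp4b1, a P450 gene of fatty acids, was at 8.59 to 40.9 CPM in the low-Hox Control libraries, 3.97 and 2.20 CPM in the pair and 2.20 to 5.16 CPM in GF-AOMS. Mfap3l, a membrane protein gene, was at 61.7 to 68.1 CPM, 12.0 and 6.58 CPM and 7.04 to 13.7 CPM in the same order. For both the sign turned, from -2.44 to 0.28 (SE 0.46) and from -2.09 to 0.22 (SE 0.32). Lpl, the lipoprotein lipase gene, fell by 2.03 on the log2 scale against all Control libraries and differed by -0.27 from the pair. It was the only called member of the adipocyte list, of which 5 of 10 were measured. The summed level of that list was 108 to 735 CPM in Control and 105 to 226 CPM in GF-AOMS, and 150 and 108 CPM in the pair; the part of fat tissue in the result was not tested. Bche, the butyrylcholinesterase gene, gave -1.47 and -0.12.

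Cldn4, Chga, Chgb and Duox2 also fell, by less against the high-Hox pair. Cldn4, a claudin of tight junctions, was at 33.2 to 55.1 CPM in the low-Hox Control libraries, 24.0 and 10.5 CPM in the pair and 3.71 to 11.4 CPM in GF-AOMS. Only Control replicate 2 entered the GF-AOMS range. The difference was -2.18 (SE 0.35, edgeR adjusted p = 0.0304) and -1.24 (SE 0.39) against the pair. Of the 20 listed junction genes it alone passed, 16 were lower, and the median was -0.26.

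Chga and Chgb encode the granins of hormone-storing granules. Chga was at 32.1 to 184 CPM in Control and 15.5 to 31.9 CPM in GF-AOMS, with medians of 81.3 and 26.0 and no overlap, although the edges nearly touched. The differences were -1.98 (SE 0.36) for Chga and -1.88 (SE 0.37) for Chgb, and -0.61 and -0.62 against the high-Hox pair. Of 9 measured enteroendocrine genes 6 were lower, with a median of -0.30. Duox2, which makes hydrogen peroxide at the epithelial surface, was at 47.2 to 284 CPM in Control and 39.0 to 59.7 CPM in GF-AOMS. Its difference was -1.44 (SE 0.31, edgeR adjusted p = 0.0421) and -0.78 against the pair, and it alone passed among 13 measured genes of epithelial defence. Of those 13, 8 were lower and 5 higher, with differences from -1.44 to 2.09 and a median of -0.25. Against the pair 7 were lower and 6 higher.

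**Figure D4:**
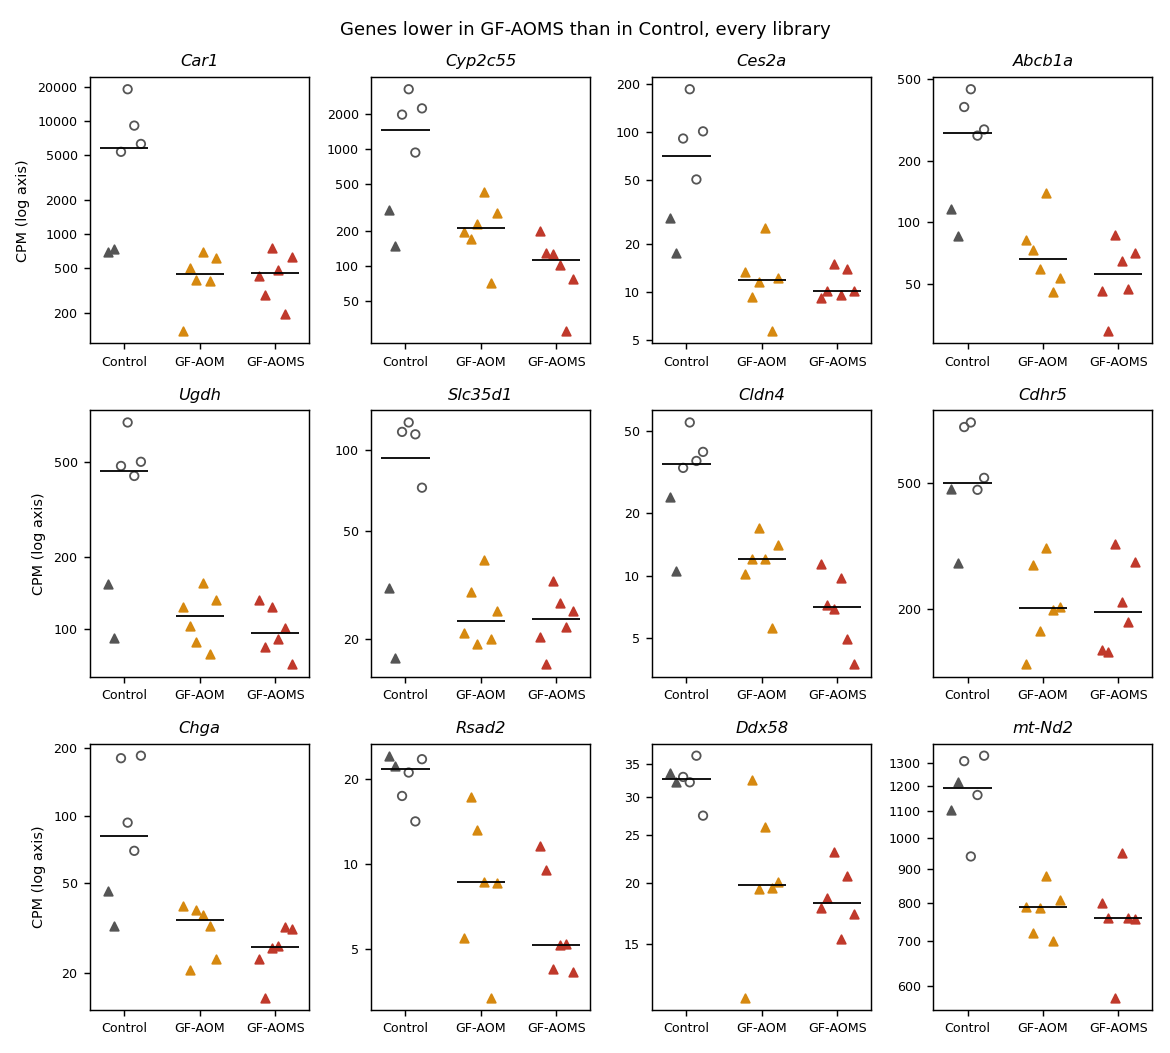
Each point is 1 library, in CPM on a log axis, for 12 genes called lower in GF-AOMS. Triangles are libraries with at least 10 CPM of both Hoxa13 and Hoxb13, open circles the others, and bars medians. The Control triangles fall among or near the GF-AOMS libraries for Car1, Ugdh and Slc35d1, and stay with the other Control libraries for Rsad2, Ddx58 and mt-Nd2.

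Interferon-stimulated genes had lower values in GF-AOMS, and this was seen against the high-Hox pair as well. Of 19 listed, 15 were measured and all 15 had lower values, with a median of -0.79. Against the high-Hox pair all 15 were again lower, with a median of -0.81, while the median against the low-Hox Control libraries was -0.53. In the comparison with all Control libraries 2 of the 15 passed. The summed level of the list was 1200 to 1830 CPM in Control, 1637 and 1830 CPM in the pair, and 452 to 1481 CPM in GF-AOMS, so the groups overlapped. Across the other settings and left-out libraries the median ran from -1.48, without the 5 libraries with TMM factors under 0.9, to -0.58, over the members with an FPKM of at least 5.

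Rsad2 encodes viperin, an antiviral enzyme. Its level was 14.1 to 24.2 CPM in Control and 4.14 to 11.6 CPM in GF-AOMS, with medians of 21.7 and 5.17 and no overlap. The difference was -1.62 (SE 0.35, edgeR adjusted p = 0.0408), and -1.81 (SE 0.45) against the high-Hox pair at 24.2 and 22.2 CPM. Ddx58 encodes RIG-I, a sensor of viral RNA. It lay at 27.4 to 36.4 CPM in Control and 15.3 to 23.1 CPM in GF-AOMS, again with no overlap, for a difference of -0.79 (SE 0.18, edgeR adjusted p = 0.0495) and -0.81 (SE 0.25) against the pair. GF-AOM libraries were spread from 3.35 to 17.3 CPM for Rsad2 and from 11.6 to 32.5 CPM for Ddx58. Ifit1 (-2.13) and Isg15 (-1.06), chosen after their values were seen, did not pass.

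Interferon acts through factors that bind an element with the core GAAANNGAA, where N is any base. The promoters of the called pair are shown because they were the only genes of this list to pass. The windows run from 250 bases before to 50 after the annotated start, from RefSeq on GRCm38.p6, 5′ to 3′ on the gene's strand, with the match, here on the opposite strand, in capitals.
Rsad2, chr12:26456403-26456702, minus strand: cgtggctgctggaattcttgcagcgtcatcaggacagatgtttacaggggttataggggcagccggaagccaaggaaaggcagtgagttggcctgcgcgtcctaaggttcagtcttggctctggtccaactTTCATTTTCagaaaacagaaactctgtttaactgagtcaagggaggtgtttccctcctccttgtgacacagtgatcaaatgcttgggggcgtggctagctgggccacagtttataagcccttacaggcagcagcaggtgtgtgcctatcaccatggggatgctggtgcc
Ddx58, chr4:40239776-40240075, minus strand: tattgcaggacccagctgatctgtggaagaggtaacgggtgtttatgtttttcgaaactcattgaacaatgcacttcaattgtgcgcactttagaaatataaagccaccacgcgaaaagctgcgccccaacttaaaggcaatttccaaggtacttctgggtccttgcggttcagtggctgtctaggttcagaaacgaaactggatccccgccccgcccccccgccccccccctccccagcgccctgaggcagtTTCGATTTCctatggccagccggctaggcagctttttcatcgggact
The match began 119 bases before the start of Rsad2 and 3 bases after that of Ddx58. Searched on both strands, the core was in 9 of 13 windows (69.2%) of the 12 measured interferon-stimulated genes that had an entry. It was in 8.56% of all 32851 windows and in 7.13% of the 9961 windows of measured genes. A match in these letters is a description and does not show binding.

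Transcripts of the mitochondrial genome mostly had lower values. Of the 13 protein-coding genes 12 were lower, with a median of -0.49, and against the high-Hox pair all 13 were lower, with a median of -0.38. Only mt-Nd2, for a subunit of respiratory complex I, passed. It was at 939 to 1331 CPM in Control, 1104 and 1216 CPM in the pair, and 575 to 950 CPM in GF-AOMS, where only Control replicate 4 lay inside the GF-AOMS range. The difference was -0.62 (SE 0.13, edgeR adjusted p = 0.0408) and -0.60 against the pair. The transfer RNA genes mt-Tr (-1.28) and mt-Tm (-0.93) also passed, at under 4 CPM in each library. For mt-Tr the values were very low, at 0.156 to 0.429 CPM in Control and 0.083 to 0.173 CPM in GF-AOMS. The gene mt-Tm (MT, 3845 to 3913) adjoins mt-Nd2 (MT, 3914 to 4951). All mitochondrial genes together held 4.59% of counts in Control (SD 0.722, n = 6) and 3.11% in GF-AOMS (SD 0.671, n = 6), a difference beyond the replicate spread (exact permutation p = 0.00433, adjusted over 3 measures 0.0130). The pair stood at 3.49% and 4.42%, and GF-AOMS at 2.32% to 4.25%.

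Among the other called falls, Bmp2 and Vwa1 kept their size against the high-Hox pair and Stk17b, Klk1 and Slc30a1 were among those that kept over 1/2 of it. These genes were chosen after their values were seen. Bmp2, a secreted signal of the upper crypt, was at 12.9 to 28.6 CPM in Control, 25.9 and 26.2 CPM in the pair, and 11.6 to 18.04 CPM in GF-AOMS. The difference was -0.74 (SE 0.17) with all Control libraries and -0.92 (SE 0.22) with the pair. Vwa1, a matrix protein gene, gave -0.57 and -0.62, with 14.9 to 21.9 CPM in Control and 10.2 to 14.7 CPM in GF-AOMS. The kinase gene Stk17b gave -0.86 and -0.54, the kallikrein gene Klk1 gave -0.85 and -0.56, and the zinc exporter gene Slc30a1 gave -0.70 and -0.54. The remaining named genes of the 30 largest called falls were split. Apol7a (-1.72, and -1.09 against the pair), Bnip5 (-1.68 and -1.17), Clec2e (-1.50 and -1.06) and Flrt3 (-1.46 and -0.73) kept at least 1/2. Tmigd1 (-1.80 and -0.56), Pbld2 (-1.77 and -0.17), Selenbp2 (-1.72 and -0.36), Prss23 (-1.53 and -0.33) and Selenbp1 (-1.49 and -0.50) kept less.

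Markers of other cell types moved in part with these groups, and none of the lists that follow had a called member. Of 13 measured smooth muscle genes 12 were higher, with a median of 0.49, or 0.26 against the high-Hox pair and -0.12 without the 5 libraries with TMM factors under 0.9. Their summed level was 2263 to 6390 CPM in Control and 2760 to 16297 CPM in GF-AOMS. Of 10 epithelial genes 8 were lower (median -0.29, and -0.27 against the pair). Of 12 endothelial genes 10 were lower (median -0.40, and -0.39 against the pair), and of 13 fibroblast and matrix genes 11 were lower (median -0.43 and -0.36). The summed levels in Control and GF-AOMS were 334 to 496 and 245 to 364 CPM for endothelium, and 1106 to 2975 and 1185 to 2321 CPM for fibroblasts. The mast cell protease genes Mcpt1 (3.08) and Mcpt2 (3.46) had large differences that did not pass, with edgeR adjusted p of 0.199 and 0.129. Kit, the only other measured gene of the mast cell list, had a lower value (-0.38) and did not pass either. Mcpt2 was at 0.197 to 7.36 CPM in Control and 4.21 to 130.7 CPM in GF-AOMS. Every gene of the deposited count table had an FPKM of at least 1 in 15 or more libraries. None of the measured markers could therefore be at 0 in all libraries. The part of cell makeup in the called genes was not tested. The macrophage, T and NK cell and plasma cell lists had medians of 0.17, 0.27 and 0.39, which were -0.07, 0.35 and -0.17 against the pair, so the sign turned for macrophages and plasma cells. All 22 proliferation genes had higher values, with a median of 0.11, or 0.00 against the pair and -0.06 with Hoxb13 as covariate, and none passed.

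**Figure D5:**
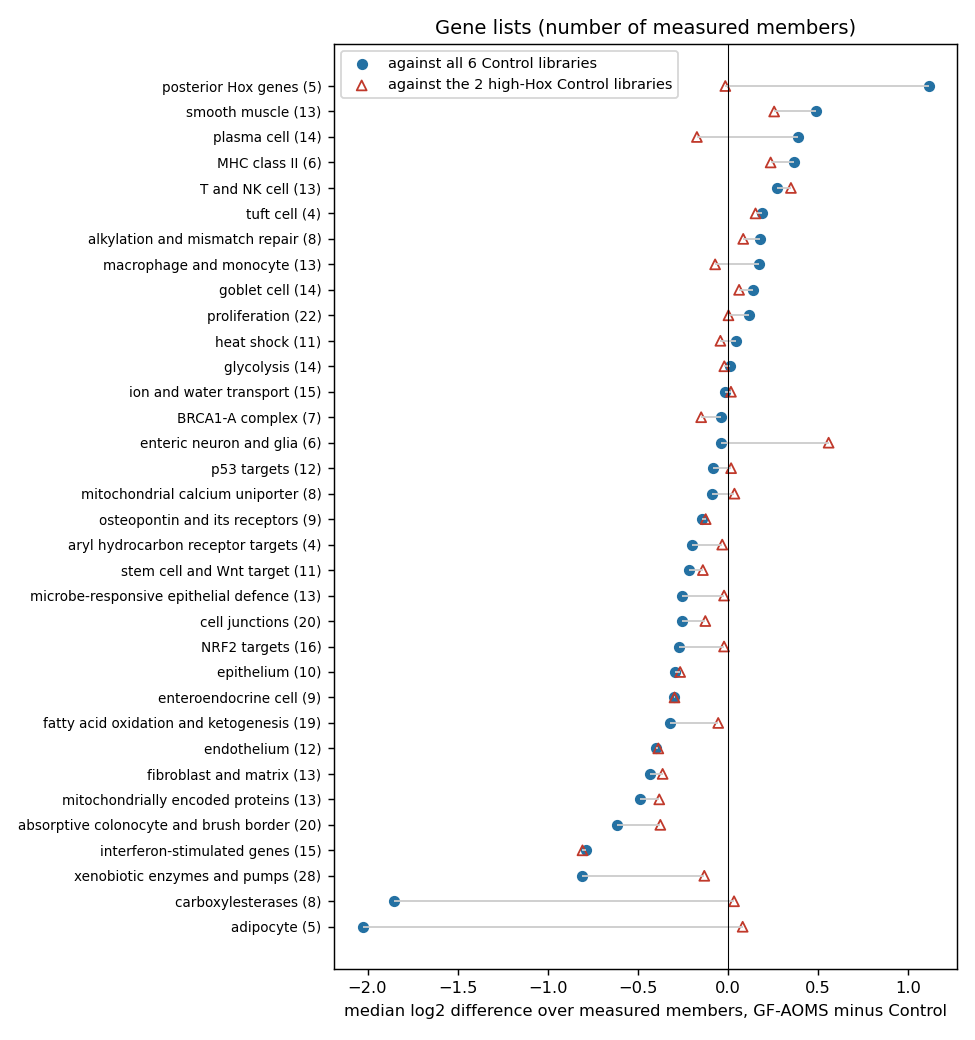
Each line is 1 gene list with at least 4 measured members, whose number is in brackets. Circles are median log2 differences against all 6 Control libraries and triangles those against the 2 high-Hox Control libraries. The triangles of carboxylesterases, xenobiotic enzymes and adipocyte genes sit closer to 0 than their circles, and those of interferon-stimulated genes and endothelium sit on them.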

How the data were processed

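RNA-seq of mouse colorectum was analysed from 1 deposited table with read counts and FPKM values per gene. Whole-number counts per gene and library were deposited, made with featureCounts, per the submitters' processing notes, which also name DESeq2 and the build GRCm39. Of 10897 gene identifiers 10890 were found in GENCODE M21, an annotation of GRCm38, and 93.1% of these had both ends within 100 bases of it, so printed positions are those of GRCm38. FPKM values (fragments per kilobase, scaled for depth) were computed by the authors, per the file headers. For the aligner, the versions and the strand setting of the counting, nothing is given in the sources used here. No gene of the table was under an FPKM of 1 in more than 3 libraries, so genes limited to 1 group are not analysed here.

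All 18 libraries were fitted with edgeR 4.0.16 in R 4.3.3 (TMM scaling, quasi-likelihood F test, group means only, 15 residual degrees of freedom), with two-sided p adjusted by Benjamini-Hochberg over 10897 genes and a threshold of 0.05. A filter of FPKM at least 1 in 6 libraries removed 0 genes. CPM values are TMM-scaled, and log2 differences are those of the edgeR fit at its default prior count. A prior count of 2 was used for the log2 CPM values behind the library correlations and the Hoxb13 covariate. The comparison with the high-Hox Control libraries splits Control into 2 groups in the same model (14 residual degrees of freedom). Library shares were compared by exact permutation tests, whose smallest p is 0.00216. The model was also run on simulated counts with the same mean for all libraries of a group. That run had no split within Control, so it does not test how the model handles these libraries. Library totals of 48.95 to 79.23 M counts (M is mega) set the counting precision. Alternatives used DESeq2 1.42.0, limma 3.58.1, other scalings and filters, a replicate block, covariates and libraries left out.

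Genes were named from a set given by a rule. It held every called higher gene and the 30 largest called falls whose mean FPKM in Control was 2 or more. Called members of 38 gene lists were added, with up to 3 members of smallest p where a list had none. The set also held 6 fixed genes. Not every gene of the set is named in the text. Pseudogenes and clone names were counted and not named. Genes outside the rule are said to be chosen after their values were seen, and members of described lists are given as values. The comparison, gene lists and rule were chosen with earlier results of these data known.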

Additional observations from a re-analysis of the deposited data

Results flagged for a closer look

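Single libraries stood far from the other 5 of their group for 6 of 78 sets of 6 values that were examined. About 5% of such sets are expected to do so by chance if values are normally distributed, which was not checked here. Uimc1 and Rhox5 were both called higher. Uimc1 was at 470.2 CPM in GF-AOMS replicate 2 and at 124 to 252 CPM in the other 5, and Rhox5 was at 1.45 CPM in Control replicate 2 and at 1.99 to 2.22 CPM in the other 5. Among lower genes, Duox2 was at 284 CPM in Control replicate 3 against 47.2 to 123 CPM, and Lpl was at 151.6 CPM in Control replicate 6 against 11.3 to 60.2 CPM. Hoxb13 was at 330.2 CPM in Control replicate 2, 122 CPM in replicate 1, the other high-Hox library, and 2.43 to 2.65 CPM in the low-Hox Control libraries. Mcpt2, which did not pass, was at 130.7 CPM in GF-AOMS replicate 2 against 4.21 to 44.2 CPM.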

How the results depend on the processing

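The called genes kept their sign in every refit that measured them (56 of the 80 with FPKM of at least 5, all 80 otherwise), except the one with only the high-Hox Control libraries, where 77 did. There Cyp4b1 gave 0.28 and Mfap3l 0.22. The 80 genes were chosen on these same libraries, so kept signs are a description and not a separate test. How many genes passed changed far more, and the cause was not tested. Against 80 genes (12 higher, 68 lower), DESeq2 called 375 (88 and 287), limma 19 (9 and 10) with a pseudocount of 1 and 20 (10 and 10) with 0.1, and upper quartile scaling 47 (12 and 35). The count by RLE scaling (65) stayed within 1.5 times, as did 57 with FPKM of at least 5, of which 44 were lower. The fit without a filter (80) could not differ, because the filter removed 0 genes. By edgeR 0 genes passed, higher or lower, in 4 fits: the 2 groups alone (1510 at unadjusted p under 0.05), high-Hox Control only (350), Hoxb13 as covariate (750) and ribosomal protein share as covariate (1681). An alternative chosen after seeing the data, without the 5 libraries with TMM factors under 0.9, gave 277 (75 and 202), of which 70 were shared with the 80. Control replicate 2 and GF-AOMS replicate 2 were both among those 5. Leaving out each of the 18 libraries in turn gave 0 to 493 genes, 0 to 134 higher and 0 to 359 lower. Leaving out 1 of the GF-AOM libraries, which enter only the estimate of spread and the scaling, gave 31 to 61. A replicate block gave 33 genes (4 and 29). The labels share only numbers between groups: deviations of same-numbered libraries correlated from -0.39 to 0.52, over 0.1 in 4 of 6 pairs, and 3 of 6 GF-AOMS libraries were closest to their own number. The high-Hox comparison rests on 2 Control libraries, and position along the colon cannot be told apart from other traits of those libraries.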
